A study of Mus musculus with 16 samples.

Results

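In mouse embryonic stem cells that carry a DNMT1 able to leave a chemical tag on DNA, 7 gene bodies were without a single tagged CpG in both naive (day 0) libraries: the lncRNA genes Trp53cor1, Neat1, Malat1 and Gm4117 and the protein-coding genes Cdkn1a, Ywhaz and Cox19. They are 7 of 34614 RefSeq gene bodies, of which 7045 (20.4%) held no listed position on day 0. The members were chosen by their position counts on day 0 (none) and, apart from Malat1, on day 8 (many). Malat1 is the neighbour of Neat1. Their day 0 and day 8 values are therefore a description and carry no test. A position here is a CpG to which at least 1 sequencing read was assigned, and each listed position has a whole-number read count.

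The cells were of the E14TG2a line, and all knock-in cells were heterozygous for the Dnmt1 substitution N1580A. Every group, wild type included, received 1 mM Ado-6-azide, a cofactor analog, by electroporation, and DNA was taken 3 h later. The Het group had 3 libraries, and the series of days 0, 2, 4 and 8 had 2 libraries per day. Naive cells grew in 15% serum with 1000 U/mL LIF and the inhibitors CHIR99021 (3 µM) and PD0325901 (1 µM), and priming was growth without both inhibitors for up to 8 days. Wild-type Dnmt1 cells gave 3 libraries and a group called wild-type control gave 2. It is not stated in which state Het cells grew, how the wild-type groups differ, or whether replicates came from separate cultures, so p-values measure only the spread between libraries, which may be technical. The remaining wild-type Dnmt1 allele in the knock-in cells is not tracked.

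The day 0 libraries stood apart in depth, which touches every value below. They held 4202118 and 4875459 reads at 390158 and 407127 positions, against 8927149 to 25175264 reads at 1267200 to 3423423 positions in the other 9 knock-in libraries. Day 0 libraries had 10.8 and 12.0 reads per position and day 8 libraries 4.11 and 4.05. Members are therefore given as distinct positions, also per 1000000 positions listed in the library (PPM). The part of depth in the empty gene bodies was not tested. The 5 wild-type libraries listed only 960 to 9150 positions each. In them Neat1 had 1 position (4 reads, WT replicate 1), Cdkn1a 1 (1 read, control replicate 2) and Gm4117 1 in WT replicate 2 and 1 in control replicate 2 (1 read each), and the other members none.

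DNMT1 is the maintenance methyltransferase: it copies CpG methylation onto the new DNA strand after replication. A tag marks DNMT1 action at a CpG and is no measure of transcription. p21, the product of Cdkn1a, inhibits cyclin-dependent kinases and is a classical target of p53, and Trp53cor1 encodes lincRNA-p21, a p53-induced lncRNA transcribed next to it. Neat1 is the architectural RNA of paraspeckles, nuclear bodies built on it, and Malat1 is an abundant nuclear RNA of speckles encoded beside it. YWHAZ is the zeta 14-3-3 protein, which binds phosphorylated partners. COX19 is an assembly factor of cytochrome c oxidase.

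The 250 bases upstream of the annotated start were read from RefSeq (GRCm38.p6, the coordinates of mm10) for 4 of the 7 members: Cdkn1a with a pair of starts, Cox19, Malat1 and Gm4117. They are shown because the CpGs at these starts are where listing in the later and Het libraries can be read base by base. Sequences run 5′ to 3′ on the gene's strand, and capitals mark each CpG and, in the first, the paired CATG cores.
Cdkn1a upstream start, chr17:29090729-29090978, plus strand: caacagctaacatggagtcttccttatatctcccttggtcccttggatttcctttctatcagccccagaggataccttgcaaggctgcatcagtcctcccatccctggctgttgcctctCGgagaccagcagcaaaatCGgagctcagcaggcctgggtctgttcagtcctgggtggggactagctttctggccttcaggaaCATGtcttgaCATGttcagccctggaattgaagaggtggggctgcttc
Cdkn1a downstream start, chr17:29093519-29093768, plus strand: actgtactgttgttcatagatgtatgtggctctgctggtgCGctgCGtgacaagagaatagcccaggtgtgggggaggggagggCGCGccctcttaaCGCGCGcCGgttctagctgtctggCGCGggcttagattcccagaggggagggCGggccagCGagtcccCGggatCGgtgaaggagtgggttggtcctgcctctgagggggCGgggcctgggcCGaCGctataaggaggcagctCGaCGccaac
Cox19, chr5:139345167-139345416, minus strand: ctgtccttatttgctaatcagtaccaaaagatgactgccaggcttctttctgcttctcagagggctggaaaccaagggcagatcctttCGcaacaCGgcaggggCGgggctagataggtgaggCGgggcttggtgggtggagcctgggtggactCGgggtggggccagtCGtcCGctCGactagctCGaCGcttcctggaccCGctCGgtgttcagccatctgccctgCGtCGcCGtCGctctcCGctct
Malat1, chr19:5802673-5802922, minus strand: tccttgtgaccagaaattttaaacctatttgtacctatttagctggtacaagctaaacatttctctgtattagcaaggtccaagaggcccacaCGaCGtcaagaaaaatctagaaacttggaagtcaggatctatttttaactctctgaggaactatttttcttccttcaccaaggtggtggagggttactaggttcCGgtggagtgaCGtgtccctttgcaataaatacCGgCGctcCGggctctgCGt

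The upstream Cdkn1a window holds 2 CpGs. Both were listed: position 29090848 in 3 knock-in libraries (7 reads in Het replicate 3, 3 and 6 on day 8) and position 29090867 in 2 (2 reads each in day 4 replicate 1 and day 8 replicate 2). The downstream Cdkn1a window, with 19 CpGs, was listed nowhere in the 11 knock-in libraries. The same held for the 17 CpGs of the Cox19 window, the 8 of the Malat1 window and the 1 of the Gm4117 window, which is not printed. Across 32815 promoter windows of this length, 12.2% of 323311 CpGs were listed in at least 1 knock-in library, and the median window holds 6 CpGs. Apart from the 2 in the upstream Cdkn1a window, the CpGs of these windows thus went unlisted also in libraries where the gene bodies were labelled. The motif CATGNNNNNNCATG, searched on both strands (it is its own reverse complement), is the core of a p53 response element. It occurs once in the upstream Cdkn1a window, at 29090931 to 29090944, and in 160 of all 32815 windows (0.488%).

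Trp53cor1 (RefSeq gene 100504267, chr17:29057474-29079126, 21.7 kb, overlapped at its lower end by the lncRNA gene Gm41556) went from 0 and 0 positions on day 0 to 19 and 21 on day 2, 44 and 51 on day 4, and 82 and 50 on day 8. Het libraries listed 37, 73 and 55. These positions carried 256 and 150 reads on day 2, 279 and 237 on day 4, 365 and 183 on day 8 and 524, 611 and 438 in Het. The level was 15.5 ± 0.752 PPM (SD, n = 2 for each day) on day 2, 20.4 ± 0.868 on day 4, 21.6 ± 0.879 (n = 3) in Het and 23.0 ± 5.33 on day 8. Both day 2 libraries lay below all 7 others with label, while day 4, Het and day 8 overlapped. Set against a floor of 3 positions over both day 0 libraries, the share was 4.13-fold higher on day 2. The floor takes no account of the choice of members by their 0 on day 0. This fold and those below are thus a description and no tested bound. The fold over the floor was 5.41 for day 4, 6.19 for day 8 and 5.69 for Het.

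Cdkn1a (gene 12575, chr17:29090979-29100722, 9.74 kb) is the next gene after Trp53cor1 by coordinate. It had 0 and 0 positions on day 0, 10 and 10 on day 2, 23 and 35 on day 4, and 36 and 33 on day 8. Het libraries had 19, 33 and 31. Read counts were 59 and 66 on day 2, 142 and 201 on day 4, 156 and 135 on day 8, and 216, 244 and 264 in Het. The order in PPM was day 2 (7.77 ± 0.173), Het (10.98 ± 1.17), day 8 (12.2 ± 0.660) and day 4 (12.3 ± 1.84). Day 2 was again below every later library, and the 3 higher groups overlapped. Over the day 0 floor it was 2.06-fold, 3.30-fold, 3.24-fold and 2.86-fold higher on days 2, 4 and 8 and in Het. Positions were uneven along the gene: over the 9 later and Het libraries, 5 equal parts of the body from its start held 37, 17, 16, 104 and 56.

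Neat1 (gene 66961, chr19:5824708-5845480, 20.8 kb) also had 0 and 0 positions on day 0. It had 14 and 20 on day 2, 38 and 50 on day 4, 56 and 59 on day 8, and 36, 72 and 60 in Het. Reads numbered 80 and 181 on day 2, 271 and 259 on day 4, 243 and 263 on day 8 and 455, 600 and 613 in Het. The replicates of day 2 differed more in reads than in positions. The order in PPM was day 2 (13.2 ± 3.00), day 4 (18.8 ± 0.884), day 8 (20.5 ± 3.11) and Het (21.9 ± 0.845). Day 2 lay below all later libraries and day 4 below all Het libraries, while day 8 overlapped both day 4 and Het. The folds over the day 0 floor were 3.51, 5.01, 5.39 and 5.79 for days 2, 4 and 8 and Het.

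Malat1 (gene 72289, chr19:5795690-5802672, 6.98 kb) differed from its neighbour: it was sparsely listed in every group. It had 0 and 0 positions on day 0, 0 and 1 on day 2, 1 and 8 on day 4, 13 and 1 on day 8, and 2, 6 and 10 in Het. Replicates of days 4 and 8 and of Het lay far apart and these groups overlapped, while both day 2 libraries were below all Het libraries. Scaled to the day 0 depth, its later counts fell under the floor of 3 positions, so no fold is given, and its absence on day 0 was not detectable as a difference at this depth.

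Ywhaz (gene 22631, chr15:36770261-36802984, 32.7 kb, overlapping Gm41298) had 0 and 0 positions on day 0, 9 and 11 on day 2, 25 and 40 on day 4, 37 and 37 on day 8, and 17, 50 and 33 in Het. From low to high, the PPM were day 2 (7.76 ± 0.925), Het (12.5 ± 2.13), day 8 (13.1 ± 1.52) and day 4 (13.7 ± 2.53). As with the p21 locus, both day 2 libraries were lowest and the rest overlapped. Over the floor, days 2, 4 and 8 and Het were 2.06-fold, 3.70-fold, 3.47-fold and 3.45-fold higher. Of 5 equal parts of the body, the last by coordinate held 84 positions and the one before it 29.

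Cox19 (gene 68033, chr5:139337822-139345166, 7.35 kb) had 0 and 0 positions on day 0, 10 and 13 on day 2, 14 and 29 on day 4, 33 and 21 on day 8, and 14, 28 and 21 in Het. It was level from day 2 on: 8.22 ± 0.290 PPM in Het, 8.92 ± 1.45 on day 2, 8.97 ± 3.23 on day 4 and 9.42 ± 1.91 on day 8, with all groups overlapping. Its folds over the day 0 floor were 2.37, 2.45, 2.53 and 2.17 for days 2, 4 and 8 and Het. Gm4117 (gene 100042940, chr13:89733697-89790770, 57.1 kb), a long lncRNA gene that overlaps Vcan and LOC108168105, had 0 and 0 positions on day 0, 12 and 14 on day 2, 25 and 35 on day 4, 50 and 31 on day 8 and 20, 43 and 25 in Het. Its order was day 2 (10.1 ± 0.873 PPM), Het (11.4 ± 1.69), day 4 (12.8 ± 1.16) and day 8 (14.1 ± 3.11). Day 2 lay below both later days and shared its range with Het. The folds over the floor were 2.68, 3.41, 3.80 and 3.03 for days 2, 4 and 8 and Het.

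**Figure D1:**
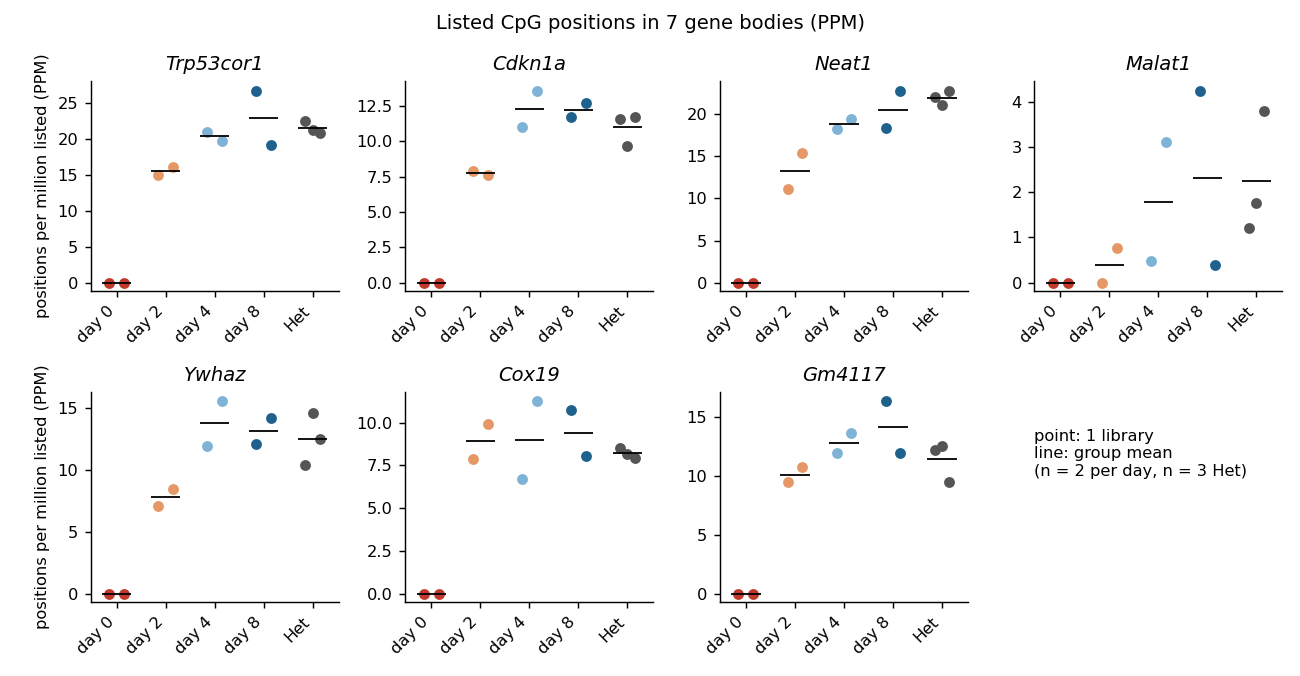
Listed CpG positions in each gene body in PPM (vertical axis, own scale per gene) for days 0, 2, 4 and 8 and Het. Points are libraries and lines group means; all day 0 points are at 0, and in Trp53cor1, Cdkn1a, Neat1 and Ywhaz both day 2 points lie below all later and Het points.

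Per length, the members were unlike one another in label where they had any. Over the 3 Het libraries, Cox19 held 8.58 positions per kb, Cdkn1a 8.52, Neat1 8.09 and Trp53cor1 7.62, against a median of 4.25 over 25345 gene bodies of at least 5 kb. These 4 ranked at the 94.0, 93.8, 91.9 and 89.4 percentile. Ywhaz (3.06 per kb, percentile 32.1), Malat1 (2.58, percentile 25.6) and Gm4117 (1.54, percentile 12.0) were below the median. The Het libraries were not used in choosing the members, but day 8 was, and the ranks were alike there. On day 8, Cox19, Cdkn1a, Neat1 and Trp53cor1 stood at the 97.9, 97.3, 89.5 and 93.5 percentile, and Ywhaz, Malat1 and Gm4117 were again below the median. The Het densities are thus not independent of the choice. A high later density was shared by 4 of the 7 and not by all.

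The members' later label was spread over many CpGs, each seen in a few libraries. Over the 9 later and Het libraries, 239 distinct CpGs were listed in Trp53cor1, 211 in Neat1, 167 in Gm4117, 151 in Ywhaz, 107 in Cdkn1a, 92 in Cox19 and 29 in Malat1. The share listed in at least 2 libraries was 60.7% in Cdkn1a, 55.9% in Neat1, 53.3% in Cox19, 50.6% in Trp53cor1, 47.0% in Ywhaz, 37.1% in Gm4117 and 34.5% in Malat1, against 49.3% of all 11669212 listed CpGs. Position 29060057 in Trp53cor1 was among the most recurrent, with 2, 8 and 6 reads in the Het libraries, 22 and 1 on day 2 and 6 in day 8 replicate 2. In Neat1, position 5828714 was listed in 6 libraries, with 9, 4 and 7 reads in Het, 8 in day 2 replicate 1, and 2 and 3 on day 4. No member CpG was listed in all 9 of these libraries, which held for only 476 of the 11669212 listed CpGs.

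Gene bodies with day 8 counts like those of the members describe where the choice lies. Among gene bodies whose day 8 count lay within 20% of the member's (members left out), 0 of 2695 were empty on day 0 beside Trp53cor1, a count of 0 that allows a share of up to 0.111% by 3 counts (exact 95% interval up to 0.137%). Beside Neat1 it was 0 of 3040 (up to 0.0987% by 3 counts, exact interval up to 0.121%). Apart from Malat1, members were chosen among empty gene bodies with many day 8 positions, with no threshold stated, and all are left out here. Trp53cor1 and Neat1 rank 1 and 2 by day 8 positions among the empty gene bodies. These zeros thus follow from the choice and show nothing beyond it. The shares were 3 of 3486 (0.0861%, exact 95% interval 0.0178 to 0.251) beside Gm4117, 5 of 3404 (0.147%) beside Ywhaz, 9 of 3489 (0.258%) beside Cdkn1a and 30 of 3664 (0.819%) beside Cox19. Beside Malat1 it was 525 of 2186 (24.0%), so its empty day 0 body is common among genes so sparsely labelled. Intervals and floors cover counting error only. Ranked by day 8 positions, the gene bodies empty on day 0 began with Trp53cor1 (132), Neat1 (115), Gm4117 (81), Ywhaz (74), LOC115486328 (70) and Cdkn1a (69). Just after Cdkn1a came Ccdc71 (66), Gm14273 (65), Tecrl (63) and Gm15825 (60), Cox19 was the 15th and Malat1 the 884th.

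**Figure D2:**
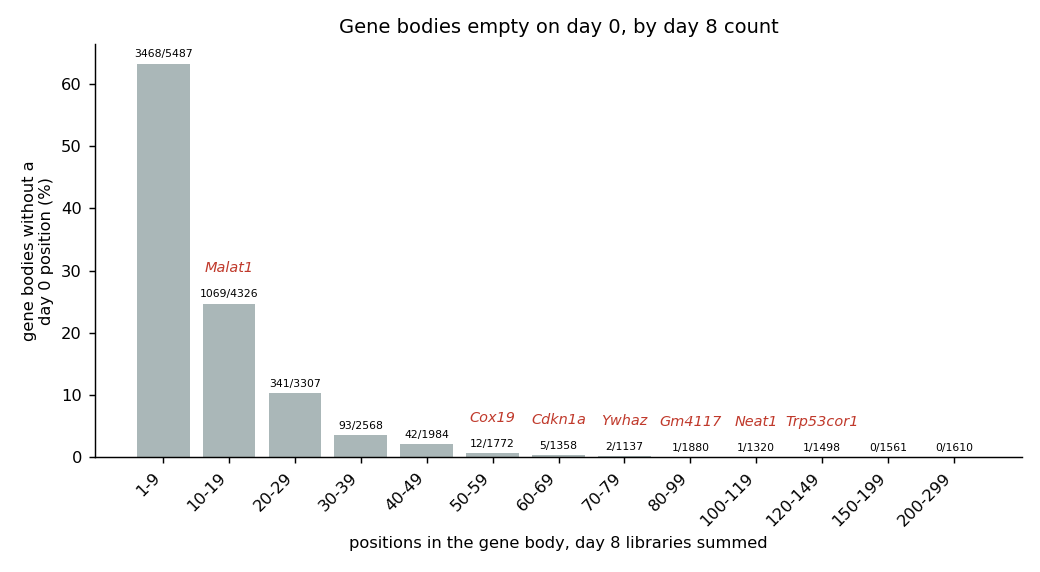
Percent of RefSeq gene bodies with 0 positions in both day 0 libraries (vertical axis) by positions in the day 8 libraries summed (horizontal axis), with the empty over all gene bodies above each bar. The members are written above their own bar; from 80 positions up, Gm4117, Neat1 and Trp53cor1 are the 1 empty gene body of their bar.

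The day 0 gap around a member was measured between the nearest listed positions on each side, over both day 0 libraries at once. Around Trp53cor1 it ran from 29054654 to 29087217 on chromosome 17, 32.6 kb, and the day 8 libraries listed 177 positions inside it. Around Cdkn1a it ran from 29089788 to 29116234, 26.4 kb, with 114 day 8 positions. The gaps are separate because day 0 replicate 1 listed positions between the genes. In replicate 2 alone, 1 gap of 79.6 kb, from 29052115 to 29131708, spanned both genes and held 365 day 8 positions, more than any other gap in that library.

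Around Neat1 the gap ran from 5824025 to 5853914 on chromosome 19, 29.9 kb, with 141 day 8 positions. It started 682 bases before the gene body and ended 8433 bases after it, inside the next gene, Frmd8. Malat1 had a gap of its own of 8.87 kb with 16 day 8 positions, so label lay between Malat1 and Neat1 on day 0. With replicate 1 alone the Neat1 gap was 54.8 kb, and with replicate 2 alone 29.9 kb. The other gaps were 50.8 kb around Ywhaz (144 day 8 positions), 10.1 kb around Cox19 (58) and 73.2 kb around Gm4117 (113).

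The gaps are placed here among all day 0 gaps, as a description, since the choice of members fixes that they hold many day 8 positions. Over 777149 day 0 gaps of the genome, the median was 1268 bases with 4 day 8 positions. Gaps as long as that of Trp53cor1 numbered 6572, and 2 held as many day 8 positions. For Neat1 the counts were 7891 and 14, for Cdkn1a 10262 and 38, for Ywhaz 2236 and 11, for Gm4117 829 and 41, for Cox19 55333 and 1943, and for Malat1 66859 and 98602. These counts include the gap itself.

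The gaps were narrow against the region. In the 400 kb from 28900001 to 29300000 on chromosome 17, 7 of 40 bins of 10 kb (17.5%) had no day 0 position: 2 over Trp53cor1, 2 over Cdkn1a, 2 over Stk38 and 1 over Cpne5. In the 400 kb from 5600001 to 6000000 on chromosome 19, 5 of 40 (12.5%) were empty, 2 of them over Neat1. In all, 21.7% of 250385 bins of the genome with a day 8 position were empty on day 0. The longest run was 2 bins in both windows, and the run at Neat1 was the only one in its window. Trp53cor1, Cdkn1a and Neat1 each had 1 empty bin with 60 to 99 day 8 positions (61, 75 and 65), a class whose bins were empty on day 0 in 0.370% of cases over the genome. Bins with 1 to 9 were empty in 52.98%. The named bins of Trp53cor1, Cdkn1a and Neat1 lie over bodies chosen for no positions on day 0 and many on day 8. Their place in a rarely empty class thus follows from the choice and shows nothing beyond it. The 0.370% includes these bins.

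**Figure D3:**
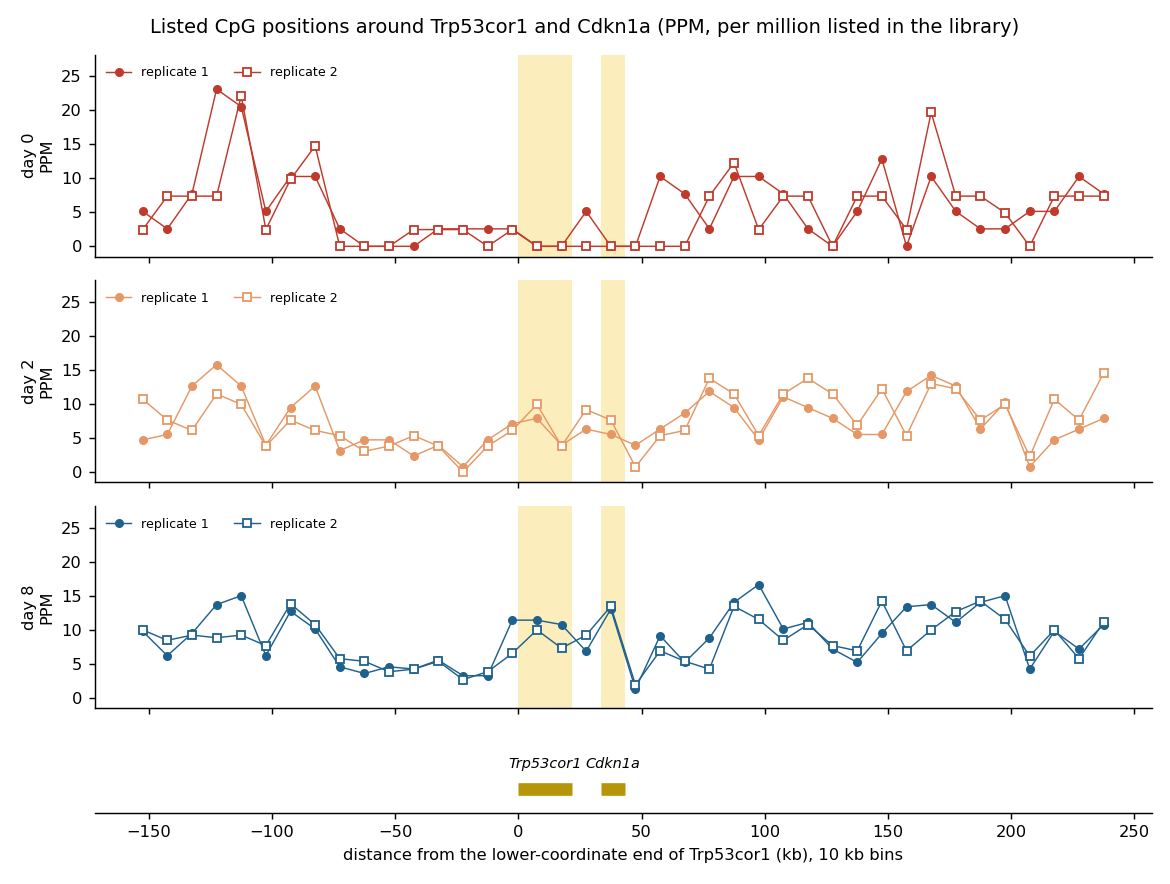
Listed positions (vertical axis, PPM) in 10 kb bins around Trp53cor1 and Cdkn1a (shaded; horizontal axis, distance from the lower-coordinate end of Trp53cor1) for both libraries of day 0, day 2 and day 8. On day 0 both replicates are at 0 in the bins inside the shaded bodies, 1 replicate has positions between the genes, and on days 2 and 8 both replicates list positions in every bin of the bodies.

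**Figure D4:**
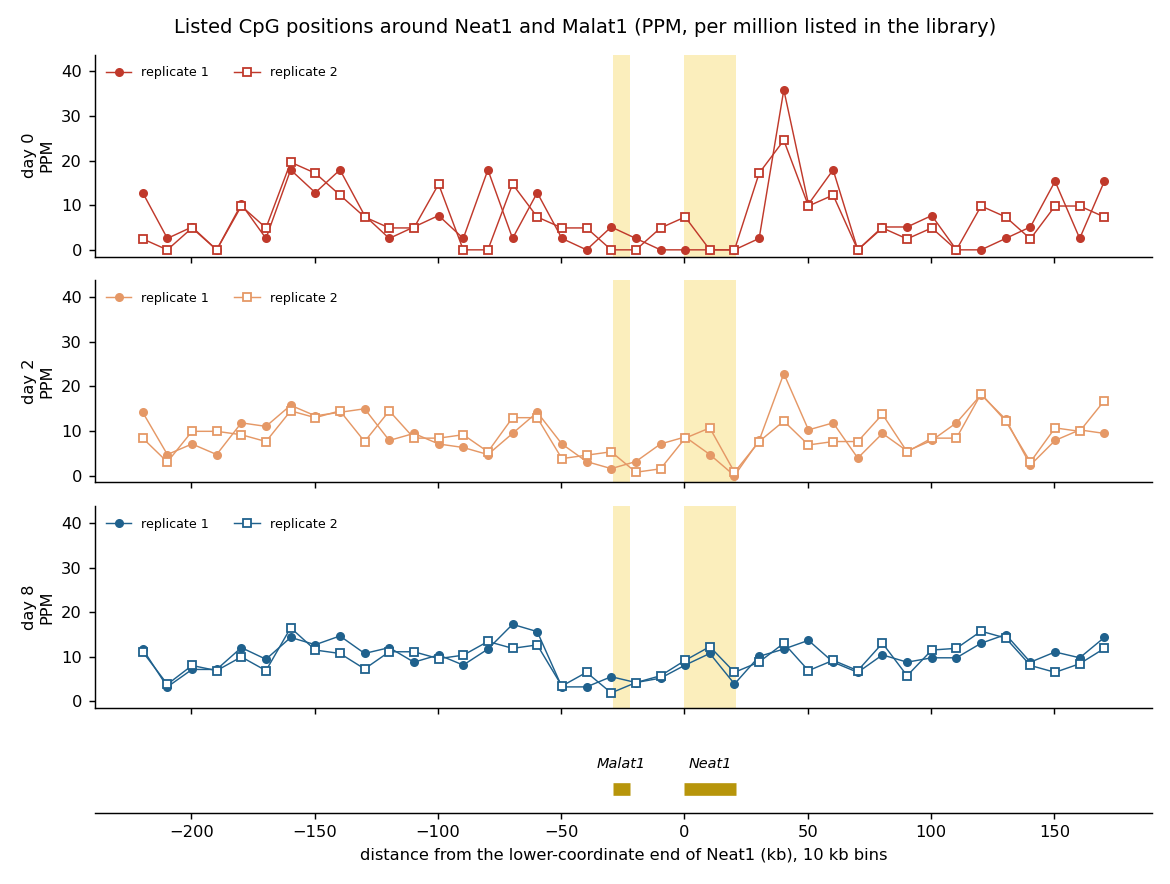
The same measure around Neat1 and Malat1 (shaded; horizontal axis, distance from the lower-coordinate end of Neat1). On day 0 the bins at 10 and 20 kb, inside and just past Neat1, are at 0 in both replicates, while the day 0 level rises in the bins next to the higher-coordinate end.

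The flanks of 200 kb on each side were labelled on day 0, some less than on later days. Of the 40 flank bins per member, 4 were empty on day 0 around Trp53cor1, 6 around Cdkn1a, 0 around Neat1, 3 around Malat1, 5 around Ywhaz, 0 around Cox19 and 10 around Gm4117. None was empty on day 8. Flanks of Trp53cor1 held 226 and 194 PPM on day 0 and 309 to 367 in the other 9 knock-in libraries. Those of Neat1 held 279 and 278 against 352 to 431, and those of Cox19 292 and 290 against 297 to 350. For Ywhaz (233 and 184 against 217 to 257) and Gm4117 (66.6 and 113 against 92.4 to 115) day 0 overlapped the others. Both day 0 libraries were below the other 9 in the flanks of 5 of 7 members. The pairs Trp53cor1 with Cdkn1a and Neat1 with Malat1 share most of their flanks, so this is 3 of 5 loci. The same held for 28.5% of 33957 gene bodies.

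Body and flank were then set against each other within a library group, as a description. The members were chosen for 0 positions in the body on day 0, so a shortfall there follows from the choice. On day 8 the Trp53cor1 body held 6.16% of the positions of body and flanks, in Het 6.03%, on day 4 5.54% and on day 2 4.76%. At those ratios, the 167 day 0 flank positions correspond to 8.35 (day 2) to 10.96 (day 8) positions in the body, where 0 were listed. For Neat1, with 222 flank positions, the corresponding number was 8.30 (day 2) to 12.0 (Het), and for Ywhaz 5.78 to 9.95. It was 7.40 to 9.53 for Gm4117, 5.77 to 7.01 for Cox19 and 4.22 to 6.23 for Cdkn1a. For Malat1 it was 0.238 to 1.41, so 0 positions there differ little from what its flanks correspond to.

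The genes closest to Trp53cor1 were also without label on day 0. Inside the Trp53cor1 gap lies Gm41556, with 0 positions on day 0 and 21 on day 8. It overlaps Trp53cor1 and shares counts with it, so its 0 follows in part from the choice of that member. The neighbour Srsf3, a splicing factor gene, also had 0 on day 0 and 19 on day 8. Over all gene bodies, 24.7% of those with 10 to 19 day 8 positions and 10.3% of those with 20 to 29 were empty on day 0. The nearest genes with day 0 label were Gm16196 (2 and 3) and Rab44 (12 and 8). After Neat1 by coordinate, the nearest was Frmd8 (19 and 21). In the edgeR quasi-likelihood test of gene-body reads, day 8 against day 0, 760 of 30249 gene bodies (2.51%) passed a Benjamini-Hochberg adjusted p of 0.05, 542 higher (1.79%) and 218 lower (0.721%). Of the 30249, 6541 had an unadjusted p under 0.05. Of the 16 neighbours tested within 200 kb of Trp53cor1 and Cdkn1a none passed (4 at an unadjusted p under 0.05), with a median log2 change of 0.81 beside 0.18 over all genes. Of 20 near Neat1 and Malat1, 2 rose: Dpf2, a chromatin factor (2.95 ± 0.49, SE, adjusted p = 0.0275), and Pola2, a DNA polymerase alpha subunit (1.80 ± 0.32, adjusted p = 0.0299). Of these 20, 6 had an unadjusted p under 0.05, and their median log2 change was 0.72. The calls of this contrast depend on single libraries: 1 gene body passed without day 8 replicate 1, 0 without day 8 replicate 2, 7653 without day 0 replicate 1 and 7452 without day 0 replicate 2. With distinct positions in place of reads, Dpf2 had an adjusted p of 0.175 and Pola2 of 0.0152, and Frmd8, the gene in which the Neat1 gap ends, was lower on day 8 (log2 change -0.94, adjusted p = 0.0191, edgeR). By reads, Frmd8 did not pass (-0.83, adjusted p = 0.151).

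No member passed the test in the comparisons that their choice did not use. Between day 2 and day 4, no gene body of 30249 passed in edgeR (0%, with 696 at an unadjusted p under 0.05). With DESeq2, 30 of the 1652 gene bodies given an adjusted p passed (1.82%), and no member was given one. The edgeR log2 changes in reads were 1.31 ± 0.62 for Ywhaz (95% interval -0.10 to 2.72), 1.06 ± 0.56 for Cdkn1a (-0.20 to 2.31) and 0.60 ± 0.49 for Neat1 (-0.52 to 1.72). Trp53cor1 was at -0.03 ± 0.41 (-0.96 to 0.91), Gm4117 at 0.00 ± 0.51, Cox19 at -0.54 ± 0.59 and Malat1 at 0.95 ± 2.04, all with an adjusted p of 1. The intervals leave room for changes of 2-fold in most members. Of genes simulated with a change of 2-fold the test recovered 23%, and of 4-fold 71%. Changes were simulated only in genes with at least the median mean count, so recovery at lower counts was not tested.

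Het was compared with day 4 in the same way, over 31108 gene bodies, of which 1 (0.00321%) passed, AY036118. Of these gene bodies, 215 had an unadjusted p under 0.05. All 7 members had an adjusted p of 1. Trp53cor1 was at 0.16 ± 0.33 (95% interval -0.54 to 0.86), Neat1 at 0.20 ± 0.36 (-0.59 to 0.98), Cdkn1a at -0.37 ± 0.41 (-1.26 to 0.52), Ywhaz at -0.19 ± 0.45 (-1.17 to 0.79), Cox19 at 0.26 ± 0.46, Gm4117 at -0.11 ± 0.40 and Malat1 at 0.20 ± 1.55. Every Het library listed positions in every member.

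Lists of related genes were described for day 8 against day 0, the contrast that chose the members, with members left out. Of 29 p53 target genes found, 27 were tested and 1 rose: Mdm2, the ubiquitin ligase that degrades p53, with 0 and 0 positions on day 0 and 28 and 31 on day 8 (adjusted p = 0.0234). In this list 9 genes had an unadjusted p under 0.05, beside 6541 of 30249 over all gene bodies. That share is the background for such counts in the other lists too. With DESeq2, which called 17% of all gene bodies it tested, 8 passed. Of the list, 5 genes were empty on day 0, among them Bax and Phlda3. Emptiness was no more frequent there than the 20.4% over all gene bodies, the background for the counts of empty genes in the other lists too. The median log2 change of those tested was 0.58, beside 0.18 over all genes. Of 7 other CDK inhibitor genes none passed (median 1.47, 2 at an unadjusted p under 0.05, 0 with DESeq2), and Cdkn2b and Cdkn2d were empty on day 0 but had only 6 and 10 positions on day 8. Of 15 paraspeckle protein genes none passed (median 0.98, 2 at an unadjusted p under 0.05, 2 with DESeq2) and Hnrnpa1 was empty on day 0. Of these, Sfpq, whose product binds Neat1, had 6 and 5 positions on day 0 and 52 and 43 on day 8. With distinct positions in place of reads, the median was 0.32 over 19 p53 target genes and 0.65 over 11 paraspeckle protein genes. It was 0.05 for the 1 CDK inhibitor gene tested, beside 0.03 over all genes.

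Of 16 nuclear or abundant lncRNA genes tested, of 20 listed, none passed (median 0.09, 3 at an unadjusted p under 0.05, 3 with DESeq2), and 5 of the 20 were empty on day 0, Tug1 among them. Of 5 other 14-3-3 genes tested, 1 rose: Ywhag, with 2 and 2 positions on day 0 and 96 and 86 on day 8 (log2 change 2.40 ± 0.33, adjusted p = 0.0193). Of 20 cytochrome c oxidase assembly genes tested, 1 fell: Cox16, with 39 and 27 positions on day 0 and 120 and 97 on day 8, a log2 change in depth-scaled reads of -1.17 ± 0.21 (adjusted p = 0.0308). Of that list of 21, 6 were empty on day 0, each with few positions on day 8. Day 4 against day 2, and Het against day 4, gave no call in any list in edgeR, with at most 1 gene per list at an unadjusted p under 0.05. The 3 calls of day 8 against day 0, Mdm2, Ywhag and Cox16, were all lost without either day 8 library.

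Gene bodies with the pattern most like Trp53cor1 and Neat1 were sought by Pearson correlation of log2(PPM + 1) over the 11 knock-in libraries. None had 20 positions in each of the 9 later and Het libraries, so those with at least 5 were taken, a choice made after seeing the data, which gave 156. LOC115486328, a lncRNA gene, came first for both, with r = 0.993 for Trp53cor1 and 0.994 for Neat1. Next were Gm35186, 1700013D24Rik, Tdh and Gm16062 for Trp53cor1 (r down to 0.989) and Sirt6, Jpt2, Dusp4 and Dyrk3 for Neat1 (r down to 0.987). All 156 share the absence on day 0 by construction, the points share library depth, and with reads in place of positions 1 of the 5 genes remained for each: Tdh for Trp53cor1 and LOC115486328 for Neat1.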

How the data were processed

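Genomic DNA of E14TG2a cells was enriched for azide-tagged fragments from 900 ng of DNA and sequenced, per the labels' protocols. The submitters' processing notes name cutadapt 4.4 and, for build mm10, BWA 0.7.17-r1188 with SAMtools 1.12. Parameters and any removal of duplicates are not given in these sources. Each library has a deposited table of CpG positions with a whole-number read count, per the file headers not normalized by the authors. All 69094 listed positions that fell in RefSeq promoter windows lay on the C of a CpG, so coordinates were read as 1-based. Groups and replicate numbers came from sample titles.

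Positions and reads were summed over RefSeq (GRCm38.p6) gene bodies and 10 kb bins of 200 kb flanks with Python 3.11.15 and pandas 2.3.3, without strand, so overlapping genes share counts. A floor of 3 positions over both day 0 libraries stood in for the 0 of day 0 in the folds. The later count entered as it stood. Gene-body reads were fitted with edgeR 4.0.16 (R 4.3.3): filterByExpr, TMM with full library totals, glmQLFit and glmQLFTest over the 8 day libraries, or 11 with Het, with Benjamini-Hochberg adjustment at 0.05. The SE is the log2 change over the square root of F. The common biological coefficient of variation was 0.488 and 0.450. On simulated counts the tests of day 8 against day 0 and of Het against day 4 recovered 72% and 88% of 4-fold changes, with 6 and 3 unchanged genes called. Changes were put only into genes with at least the median mean count. The simulated spread followed the fitted trend with mean count and not each gene's own spread. DESeq2 1.42.0 was an alternative, beside distinct positions, other scaling, no filter, fewer libraries and a replicate block. The members, gene lists and tests were chosen with earlier results of these data known. The text names the members, called genes of the lists (up to 4 each), genes in the gaps and the nearest with day 0 label, and the 5 gene bodies most like Trp53cor1 and Neat1. Other genes, such as those empty on day 0 within a list, were named after their values were seen. One gene that this rule names is not reported here.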

Additional observations from a re-analysis of the deposited data

How the results depend on the processing

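No member passed the threshold in any of 69 refits of day 4 against day 2 (lowest adjusted p 0.491) or 83 of Het against day 4 (lowest 0.999). The 69 leave out DESeq2, which gave the members no adjusted p there. Its unadjusted p was 0.024 for Ywhaz and 0.030 for Cdkn1a. The number of gene bodies called on day 8 against day 0, 760, was 5187 with DESeq2, 0 with only the libraries compared, and 0 to 7653 with 1 library left out. For day 4 against day 2 it was 0, against 27 with distinct positions and 30 with DESeq2, of 1652 gene bodies given an adjusted p. For Het against day 4 it was 1, against 0 with distinct positions, 2 with DESeq2 and 0 to 0 with 1 library left out. With the replicate number as a block, day 8 against day 0 gave 127 calls and Het against day 4 gave 0. Replicate deviations of different days correlated between -0.01 and 0.02, so no pairing by replicate number was seen. With 2 libraries per day and sparse counts, these correlations cannot exclude a shared culture or batch. The gap at Trp53cor1 and Cdkn1a was 32.6 to 79.6 kb with 1 day 0 library left out, and that at Neat1 29.9 to 54.8 kb. With only day 0 positions of at least 5 reads, the gap was 55.0 kb at Trp53cor1 and 115.9 kb at Gm4117. Those at Neat1, Malat1, Ywhaz and Cox19 stayed the same, and that at Cdkn1a was 26.5 kb. The median share, over the members, of like gene bodies empty on day 0 was 0.147%. It was 0.0578% with day 8 counts within 10%, 0.784% within 50%, 0.821% with day 2 and 0.467% with Het in place of day 8, and 2.41 to 2.73% with 1 day 0 library. Why the counts move was not tested. The share of empty bins at Trp53cor1 and Cdkn1a, 17.5%, was 32.5% with 5 kb and 5% with 20 kb bins, and that at Neat1 and Malat1, 12.5%, was 22.5% and 0%. Of all values recomputed outside the main results, the empty-bin shares above included, 220 were labelled the same and 65 moved. The 220 include the 152 refits of members. Such a refit counted as the same when neither fit passed the threshold, whatever its log2 change, so the 220 are no measure of stability. The members' log2 changes, none past the threshold, changed sign in 20 of 152 refits, among them Trp53cor1 on day 4 against day 2 (0.34 with distinct positions) and Cox19 in Het against day 4 (-0.17 with distinct positions). The 2 day 0 libraries, with fewer positions than any later library, limit all statements on empty gene bodies.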
